A study of Mus musculus with 16 samples.

Results

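The genes examined here are those of the Ms4a cluster, chosen by symbol: every gene of the expression table whose symbol starts with Ms4a. There were 8 of them among the 17951 listed genes, namely Ms4a6b, Ms4a6c, Ms4a6d, Ms4a4b, Ms4a4c, Ms4a4d, Ms4a7 and Ms4a14. RNA of sorted mouse microglia had been sequenced in 16 libraries. The WT group (n = 7) held microglia of wild-type mice. Microglia of transgenic (TG) 5xFAD mice, which carry transgenes expressed in neurons and deposit amyloid-β (Aβ), were parted into 5 libraries of TG Me-X04- cells and 4 of TG Me-X04+ cells. Me-X04, a fluorescent stain of Aβ that crosses into brain tissue, had been injected into all mice before the cells were sorted as Cd11b+ and Cd45+ and, by the study's methods, CX3CR1+. TG Me-X04+ cells carried the stain, as microglia do that have taken up Aβ, and TG Me-X04- cells did not. TG libraries with the same number share an animal label (TG1 to TG4), and TG5 gave a TG Me-X04- library only. By the sample labels the WT mice were 2 months old and the TG mice 6 months, while the study's methods give other ages, so in each comparison with WT age and genotype cannot be told apart.

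MS4A proteins span the cell membrane several times and sit in it as small complexes. Some regulate signalling from receptors beside them. The best known members are Ms4a1 (CD20), a surface marker of B cells, and Ms4a2, a chain of the IgE receptor of mast cells. In human genetics, variants at the MS4A locus are linked to the risk of Alzheimer's disease and to the level of soluble TREM2, the shed part of a microglial receptor that signals through Tyrobp. The mouse genes Ms4a6b, Ms4a6c and Ms4a6d are the relatives of human MS4A6A, and Ms4a7 is used as a marker of macrophages at the borders of the brain.

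In the mouse reference (GENCODE M21, GRCm38), 19 Ms4a genes lie side by side on chromosome 19 between bases 10962293 and 11640851, 13 on the minus and 6 on the plus strand. The authors had filtered the table on low expression, and 8 of these 19 genes were analysed. Ms4a1, Ms4a2, Ms4a3, Ms4a4a, Ms4a5, Ms4a8a, Ms4a10, Ms4a12, Ms4a13, Ms4a15 and Ms4a18 were not analysed here. The genes in the table run in the order Ms4a14, Ms4a7, Ms4a4c, Ms4a4b, Ms4a6c, Ms4a6b, Ms4a4d and Ms4a6d. Ms4a6b spans bases 11516512 to 11531256 on the plus strand, Ms4a6c 11469366 to 11482192 on the plus strand and Ms4a6d 11586604 to 11604849 on the minus strand.

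The 3 Ms4a6 genes are close copies, so their sequences matter for reading their values. Their coding parts were identical at 86.4% of the aligned bases between Ms4a6b and Ms4a6c, 81.8% between Ms4a6b and Ms4a6d and 79.6% between Ms4a6c and Ms4a6d. The first 60 coding bases, all in exon 2 of the annotated transcript, are shown because the genes start almost alike. Capitals mark the bases that are not shared by all 3 genes.
Ms4a6b, chr19:11520339-11520398, plus strand: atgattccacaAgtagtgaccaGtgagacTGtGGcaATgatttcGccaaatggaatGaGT
Ms4a6c, chr19:11471105-11471164, plus strand: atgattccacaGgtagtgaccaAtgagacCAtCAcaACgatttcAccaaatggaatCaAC
Ms4a6d, chr19:11603233-11603292, minus strand: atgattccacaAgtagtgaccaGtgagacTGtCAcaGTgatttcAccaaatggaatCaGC
Of these 60 bases, 48 were the same in all 3 genes, 54 in Ms4a6b and Ms4a6d, and 49 in Ms4a6b and Ms4a6c. A read can be told apart only where it spans a difference. Of all stretches of 50 bases in the transcripts of a gene, 3.57% occurred in another gene for Ms4a6b, 2.54% for Ms4a6d and 10.5% for Ms4a6c, and 117 of the 211 such stretches of Ms4a6c lay in Ms4a6b. Among the Ms4a4 genes, whose coding parts were identical at 91.7% of aligned bases between Ms4a4b and Ms4a4c, these shares were 8.19% for Ms4a4c, 2.40% for Ms4a4b and 0.546% for Ms4a4d. At Ms4a7 the share was 0.306% and at Ms4a14 it was 0%. Ms4a6c and Ms4a4c had the largest shares. The study's methods name reads of 50 and of 75 bases. At 75 bases the shares were 2.89% for Ms4a6c and 3.78% for Ms4a4c. Of the 57 such stretches of Ms4a6c, 35 lay in Prdm11 and 22 in Ms4a6b was the number shared with its near copy. How reads of shared stretches were counted is not given in the sources used here.

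Values are log2 RPKM, reads per kilobase of gene and 1000000 reads on a log2 scale, so levels can be compared between genes. The reads behind them were recovered from the values. Listed genes had 15623664 to 22119327 reads in the WT libraries, 17216633 to 25184600 in TG Me-X04- and 22430251 to 27579017 in TG Me-X04+. The share of reads on mitochondrial genes was 12.6% to 31.3%, 20.6% to 44.8% and 31.3% to 56.8% in the same order. After each gene's group mean was taken off, the leading principal component held 37.8% of the remaining variance. It separated a set A, with WT replicates 1 to 3 and the libraries of TG1 and TG2, from a set B, with WT replicates 4 to 7 and those of TG3 to TG5. The study's methods name more than one sequencer without saying which library was run on which. All 12 microglia markers looked up were in the table, and their reads per 1000000 summed to 17759 to 24923 (WT), 15493 to 26645 (TG Me-X04-) and 18613 to 24506 (TG Me-X04+). In bulk RNA, fewer cells with a transcript and less of it per cell cannot be told apart.

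Between the TG groups, 1 Ms4a gene differed, Ms4a6b, which was lower in the Me-X04+ cells. In TG Me-X04+ against WT, Ms4a6b was lower and Ms4a4c higher, and in TG Me-X04- against WT no Ms4a gene was differentially expressed (DE). To be DE, a gene had to reach an adjusted p under 0.05 in limma's moderated test, with the Benjamini-Hochberg adjustment made across the 17951 genes, and a log2 fold change (log2FC) of 0.7 or more in size. For TG Me-X04+ against TG Me-X04-, the 1 DE gene among 8 stood beside 5.49% of all genes DE in either direction, 3.44% higher and 2.06% lower. With a random effect for the animal, 2110 genes were DE in place of 986, and Ms4a6b was still the 1 DE Ms4a gene. For TG Me-X04- against WT, 0 of 8 stood beside 0.201%. In limma voom on the recovered reads, 0 Ms4a genes were DE in that comparison too. There, 2 of 8 (Ms4a6b and Ms4a4c) had an unadjusted p under 0.05 in limma, beside 929 of the 17951 genes. The same count was 3 of 8 beside 3363 genes for TG Me-X04+ against TG Me-X04-. It was 5 of 8 beside 4995 genes for TG Me-X04+ against WT. For TG Me-X04+ against WT, 1 higher and 1 lower of 8 stood beside 8.25% and 6.02%. The median log2FC of the 8 genes was -0.08, 0.20 and 0.11 in these comparisons, against -0.09, 0.01 and -0.11 over all genes. Any 2 of these comparisons share the libraries of a group, so they are not independent of each other.

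**Figure D1:**
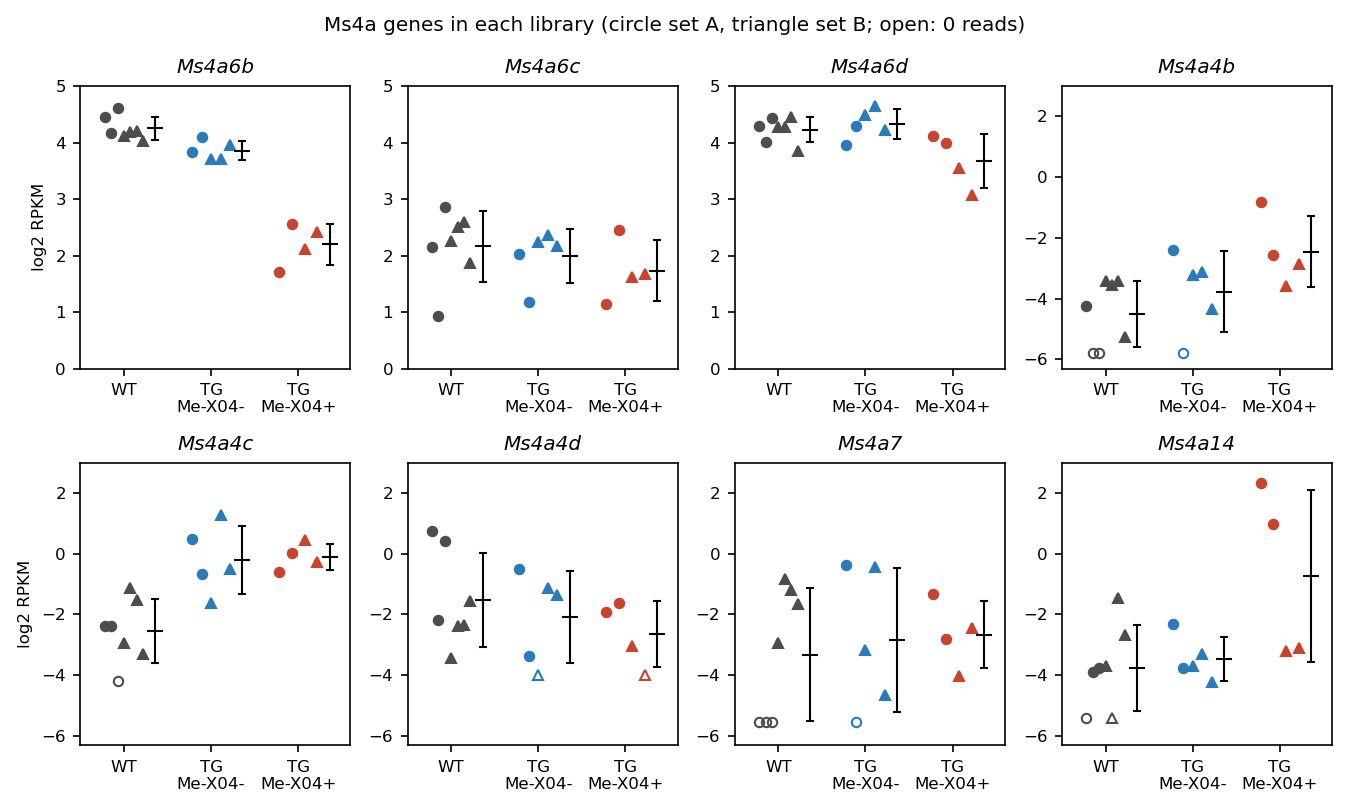
Log2 RPKM of the 8 Ms4a genes in each of 16 libraries by group (WT n = 7, TG Me-X04- n = 5, TG Me-X04+ n = 4), with circles for set A, triangles for set B, open symbols for libraries with 0 reads, and the mean and SD in black. The panels of the Ms4a6 genes share one vertical scale and the other panels another; Ms4a6b in TG Me-X04+ lies at 1.71 to 2.55, below all other libraries.

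Ms4a6b was, with Ms4a6d, the most abundant Ms4a transcript of WT microglia, and it was the gene that separated TG Me-X04+ microglia from both other groups. In WT it ranged from 4.02 to 4.61 log2 RPKM with a median of 4.18, from 1328 to 2094 reads. The TG Me-X04- libraries of animals TG1 to TG5 had 3.83, 4.10, 3.70, 3.70 and 3.95. The TG Me-X04+ libraries of TG1 to TG4 had 1.71, 2.55, 2.12 and 2.41, from 193 to 558 reads. All 4 TG Me-X04+ libraries were below every other library, while TG Me-X04- and WT overlapped. With means of 3.86 ± 0.17 (TG Me-X04-, SD, n = 5) and 2.20 ± 0.37 (TG Me-X04+, SD, n = 4), Ms4a6b fell by 1.66 on the log2 scale (SE 0.20, 95% interval -2.08 to -1.24, adjusted p = 0.00023), which is 3.16-fold lower. It was the 1 Ms4a gene whose values did not overlap between these groups, against 7.93% of all genes. Against WT (4.25 ± 0.21 SD, n = 7), it was 4.15-fold lower in TG Me-X04+ (log2FC -2.05, SE 0.19, adjusted p = 1.72e-06). Between TG Me-X04- and WT the log2FC was -0.39 (SE 0.17, unadjusted p = 0.0378 and adjusted p = 0.931 in limma), which did not pass the threshold. By rank, the share of listed genes below Ms4a6b was 91.4% with WT, 88.3% with TG Me-X04- but 62.2% with TG Me-X04+ means.

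The fall of Ms4a6b was present in each animal that gave both sorts. Within animals the TG Me-X04+ library minus the TG Me-X04- library was -2.12 in TG1, -1.56 in TG2, -1.58 in TG3 and -1.29 in TG4. With the libraries of set A alone the log2FC was -1.84 (adjusted p = 0.0662, 2 libraries against 2), which no longer passed, and with set B alone -1.52 (adjusted p = 0.000537). The share of mitochondrial reads, given above, reached higher in TG Me-X04+ than in the other groups. When the libraries were scaled by the reads outside mitochondrial genes, the median of all genes moved from -0.09 to -0.36, and Ms4a6b was still DE.

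Ms4a6d stood at about the level of Ms4a6b in WT, and it was not DE in any of the 3 comparisons. In WT it ranged from 3.85 to 4.46 with a median of 4.27. In TG Me-X04- it was 3.95, 4.30, 4.49, 4.65 and 4.22 in TG1 to TG5. In TG Me-X04+ it was 4.11, 4.00, 3.54 and 3.07 in TG1 to TG4. TG1 and TG2 (set A) lay among the WT values, and TG3 and TG4 (set B) were below all other libraries. The log2FC of TG Me-X04+ against TG Me-X04- was -0.64 (SE 0.23, 95% interval -1.12 to -0.16, unadjusted p = 0.0113, adjusted p = 0.116 in limma), which did not pass. Within animals the difference was 0.17 in TG1, -0.30 in TG2, -0.95 in TG3 and -1.58 in TG4. With the libraries of set A it was -0.07 (adjusted p = 0.931), and with those of set B -1.15 (adjusted p = 0.00904). The difference between the sets was not tested. With a random effect for the animal the limma log2FC was -0.65 (adjusted p = 0.0438). With a term for the sets it was also -0.65 (adjusted p = 0.0462). Both passed the p threshold but not the size of 0.7. Ms4a6d became DE in this comparison with library quality weights (-0.97, adjusted p = 0.0252), quantile normalization (-0.89, adjusted p = 0.0304) and scaling by reads outside mitochondrial genes (-0.91, adjusted p = 0.0312), where the median of all genes was itself at -0.36. Against WT the log2FC in TG Me-X04+ was -0.55 (SE 0.21, adjusted p = 0.0951), and in TG Me-X04- it was 0.09 (SE 0.20, adjusted p = 0.999).

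Ms4a6c, the nearest copy of Ms4a6b by sequence, stood at a lower level and was not DE in any of the 3 comparisons. In WT it ranged from 0.93 to 2.86 with a median of 2.26, from 63 to 308 reads. In TG Me-X04- it was 2.03, 1.17, 2.24, 2.37 and 2.17, and in TG Me-X04+ 1.15, 2.46, 1.62 and 1.68. The groups overlapped throughout. The log2FC was -0.27 for TG Me-X04+ against TG Me-X04- (SE 0.38, 95% interval -1.06 to 0.53, adjusted p = 0.767), -0.17 for TG Me-X04- against WT (adjusted p = 0.999) and -0.43 for TG Me-X04+ against WT (adjusted p = 0.473). Of 4 animals with both sorts, TG2 had the higher value in TG Me-X04+ (by 1.29) and the other 3 the lower one (-0.88, -0.62 and -0.69). The transcript BE692007 overlaps Ms4a6c on the other strand and had 135 to 472 reads. Since no strand setting of the counting is given in the sources used here, reads of Ms4a6c and BE692007 cannot be told apart where the genes overlap.

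**Figure D2:**
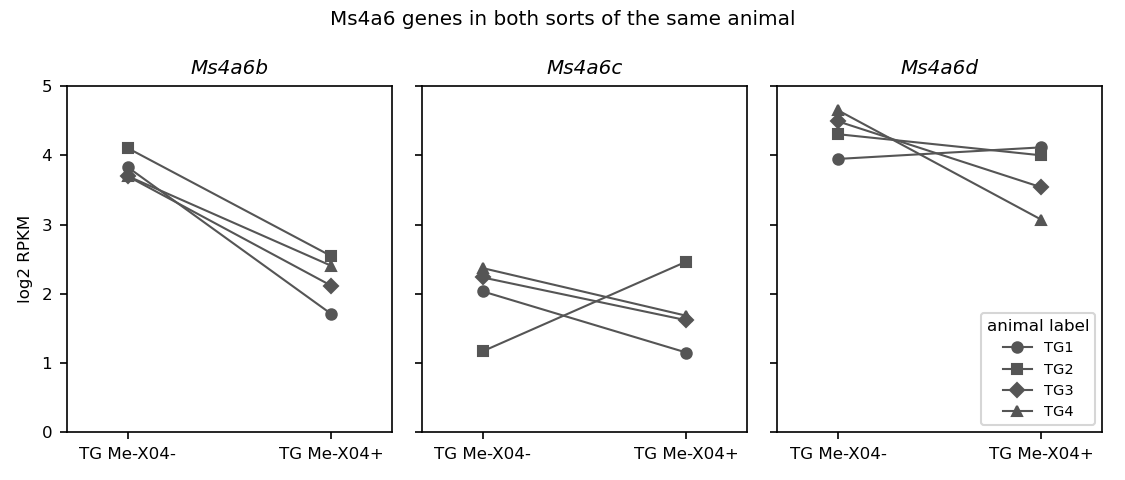
Log2 RPKM of Ms4a6b, Ms4a6c and Ms4a6d in both libraries (TG Me-X04-, left, and TG Me-X04+, right) of animals TG1 to TG4, with a line per animal. Ms4a6b was lower in TG Me-X04+ in all 4 animals, Ms4a6c in 3 and Ms4a6d in 3.

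A difference of Ms4a6 genes within a library does not depend on a scaling factor that all genes of the library share. Quantile normalization, which uses no such factor, can change it. Ms4a6b minus Ms4a6d was 0.02 ± 0.18 (SD, n = 7) in WT, -0.46 ± 0.38 (n = 5) in TG Me-X04- and -1.48 ± 0.71 (n = 4) in TG Me-X04+. It was above 0 in 4 of 7 WT libraries and in 0 of the 9 TG libraries. Its TG Me-X04+ values (-2.40 to -0.66) overlapped those of TG Me-X04- (-0.95 to -0.12) and were all below those of WT (-0.25 to 0.17). Within animals it was lower in TG Me-X04+ for TG1 to TG3, and higher for TG4 (-0.66 against -0.95). Ms4a6b minus Ms4a6c was 2.09 ± 0.56 for WT, 1.86 ± 0.63 for TG Me-X04- but 0.47 ± 0.27 for TG Me-X04+. Its 4 TG Me-X04+ values (0.08 to 0.72) lay below all WT values (1.63 to 3.23) and all TG Me-X04- values (1.33 to 2.93). Ms4a6d minus Ms4a6c was 2.06 ± 0.48, 2.32 ± 0.48 and 1.95 ± 0.71, with overlapping values in all 3 groups. In mean level, the order in WT was Ms4a6b (4.25) and Ms4a6d (4.23), which did not differ beyond their spread, then Ms4a6c (2.16). In TG Me-X04+ it was Ms4a6d (3.68), Ms4a6b (2.20) and Ms4a6c (1.73), and the values of the last 2 overlapped.

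The other 5 Ms4a genes were measured on few reads, at most 268 in a library and mostly under 40. Because of the prior of 2 reads at the mean library size that the authors added to the reads, a log2FC understates the change of such genes.

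Among the Ms4a4 genes, Ms4a4c rose in TG Me-X04+ against WT, on few reads. It spans bases 11404770 to 11427246 on the plus strand. WT ranged from -4.19 to -1.13 with a median of -2.38, from 0 to 18 reads. TG Me-X04- was 0.49, -0.67, -1.62, 1.26 and -0.50, from 13 to 104 reads, and TG Me-X04+ was -0.60, 0.01, 0.44 and -0.27, from 14 to 52 reads. All 4 TG Me-X04+ libraries were above all WT libraries, and in TG Me-X04- only the library of TG3 reached into the WT range. For TG Me-X04+ against WT the log2FC was 2.44 (SE 0.61, 95% interval 1.15 to 3.73, adjusted p = 0.0111), a DE gene. With Ms4a6b it was 1 of 2 Ms4a genes whose values did not overlap between these groups, against 10.5% of all genes. For TG Me-X04- against WT the log2FC was 2.34 (SE 0.57, 95% interval 1.14 to 3.54, unadjusted p = 0.00074, adjusted p = 0.175), which did not pass. Between the TG groups it was 0.10 (SE 0.65, 95% interval -1.28 to 1.48, adjusted p = 0.956). The call against WT was lost with library quality weights (2.17, adjusted p = 0.0901) and within each set, at 2.69 in set A (adjusted p = 0.111) and 2.31 in set B (adjusted p = 0.0767).

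Ms4a4b, a gene best known from T cells, spans bases 11443553 to 11467055 on the plus strand. It had 0 to 10 reads in WT, 0 to 15 in TG Me-X04- and 38, 12, 8 and 15 in TG Me-X04+. Only the TG Me-X04+ library of TG1 stood clear of the others. The log2FC of TG Me-X04+ was 2.05 against WT (SE 0.75, adjusted p = 0.0800) and 1.32 against TG Me-X04- (SE 0.81, adjusted p = 0.412), neither of which passed. With quantile normalization the first did (2.52, adjusted p = 0.0225). Ms4a4d, at bases 11536801 to 11558467 on the plus strand between Ms4a6b and Ms4a6d, had 1 to 40 reads in WT, 0 to 16 in TG Me-X04- and 4, 6, 2 and 0 in TG Me-X04+. Its values overlapped between all groups, and its log2FC was -0.57, -0.54 and -1.10 in the comparisons of TG Me-X04+ with TG Me-X04-, TG Me-X04- with WT and TG Me-X04+ with WT, with adjusted p from 0.449 to 0.999.

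Ms4a7, the marker of border macrophages, spans bases 11321039 to 11336146 on the minus strand and was not DE. WT replicates 1 to 3, all of set A, had 0 reads, and WT replicates 4 to 7 of set B had 11, 62, 46 and 32. TG Me-X04- had 55, 0, 11, 81 and 2 reads, and TG Me-X04+ had 22, 8, 4 and 17. High and low libraries occurred in both WT and TG Me-X04-, and the 3 groups overlapped. The log2FC of TG Me-X04+ was 0.17 against TG Me-X04- (SE 1.26, 95% interval -2.49 to 2.84, adjusted p = 0.961) and 0.66 against WT (SE 1.18, adjusted p = 0.775), and that of TG Me-X04- against WT was 0.49 (SE 1.10, adjusted p = 0.999). These signs turned under several alternatives, so no direction can be given for Ms4a7.

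Ms4a14, the first gene of the cluster in the table at bases 11301249 to 11314454 on the minus strand, was high in 2 libraries. The TG Me-X04+ libraries of TG1 and TG2 had 268 and 119 reads (2.33 and 0.98 log2 RPKM), and those of TG3 and TG4 had 8 and 9 reads (-3.19 and -3.09). The TG Me-X04- libraries of TG1 to TG5 had 12, 4, 6, 8 and 3 reads. In WT it ranged from 0 to 35 reads with a median of 3. Both high libraries belong to set A, and the low TG Me-X04+ libraries lay within the range of the WT libraries. Within animals the difference was 4.63 and 4.76 in TG1 and TG2, and 0.50 and 0.21 in TG3 and TG4. Over all libraries the log2FC was 2.72 against TG Me-X04- (SE 1.07, unadjusted p = 0.0215, adjusted p = 0.168) and 3.01 against WT (SE 1.00, adjusted p = 0.0525), neither of which passed. Against WT it passed with a term for the sets (2.94, adjusted p = 0.0343), with the replicate number as a block (3.47, adjusted p = 0.0464) and within set A (6.01, adjusted p = 0.00905), and in set B the log2FC was 0.17 (adjusted p = 0.922). It also passed without WT replicate 6 (3.40, adjusted p = 0.0317), without TG Me-X04+ replicate 3 (3.83, adjusted p = 0.0203) or without TG Me-X04+ replicate 4 (3.80, adjusted p = 0.0209). The TG Me-X04+ libraries of TG1 and TG2 had mitochondrial shares of 55.2% and 56.8%, against 31.3% and 32.0% in TG3 and TG4. Per 1000000 reads, monocyte markers summed to 48.9 and 30.0 in the TG Me-X04+ libraries of TG1 and TG2, against 13.02 and 9.80 in those of TG3 and TG4. B cell markers summed to 492 and 536, against 284 and 337. Neutrophil markers, at 21.0, 4.61, 6.16 and 0 in TG1 to TG4, did not separate the high libraries from the low ones. The monocyte sum does not stand for each of its markers. Over the TG Me-X04+ libraries the SD in log2 RPKM was 3.34 for Chil3, 2.38 for Vcan, 2.14 for Nr4a1 and 1.65 for Fn1. For Ccr2 it was 0.31. The TG Me-X04- libraries of TG1 and TG2, also of set A, had 12 and 4 reads of Ms4a14. Their mitochondrial shares were 38.9% and 44.8%, and their B cell markers summed to 288 and 367. In the TG Me-X04- libraries of TG3 to TG5 the B cell markers summed to 120 to 174. Monocyte markers summed to 33.0 and 14.1 in the TG Me-X04- libraries of TG1 and TG2. The part of mitochondrial reads and of other cells in the result was not tested.

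**Figure D3:**
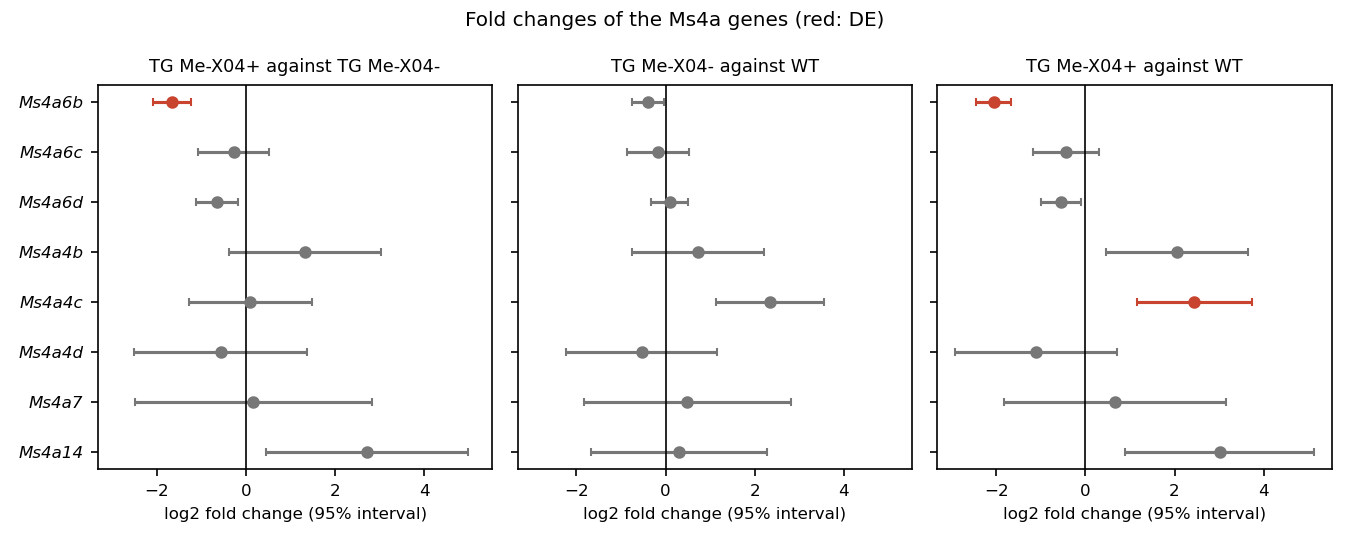
Log2 fold changes of the 8 Ms4a genes with 95% intervals in TG Me-X04+ against TG Me-X04-, TG Me-X04- against WT and TG Me-X04+ against WT, with DE genes in red. Ms4a6b is at -1.66 and -2.05 in the comparisons of TG Me-X04+, Ms4a4c is at 2.44 against WT, and the intervals of the genes with few reads are wide.

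The TMEM176 proteins are distant relatives of the MS4A family encoded on another chromosome. Tmem176b rose in TG Me-X04+ against TG Me-X04-, from 5.25 ± 0.58 (SD, n = 5) to 6.28 ± 0.26 (n = 4), a log2FC of 1.03 (SE 0.26, adjusted p = 0.0273), a call that was lost under 9 of 23 alternatives, quantile normalization and scaling outside mitochondrial genes among them. Tmem176a had 1.04 (SE 0.31, adjusted p = 0.0609). Against WT neither passed (Tmem176b 0.70 with adjusted p = 0.0613 and Tmem176a 0.80 with adjusted p = 0.0754).

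The list of TREM2 signalling and shedding, chosen for the tie between the MS4A locus and soluble TREM2, had 10 of 10 genes in the table. Of these, 3 rose and 0 fell in TG Me-X04+ against TG Me-X04-, beside 3.44% and 2.06% of all genes, and 5 of the 10 had a log2FC below 0. Trem2 rose by 1.35 on the log2 scale (SE 0.23, adjusted p = 0.0021), from 5.34 ± 0.30 (SD, n = 5) to 6.70 ± 0.43 (n = 4). Its call was lost under 1 of 23 alternatives, quantile normalization. Clec7a, a pattern receptor of activated microglia, rose by 2.75 (adjusted p = 0.000831), and Apoe, a lipoprotein that binds Trem2, by 3.15 (adjusted p = 0.000983). Clec7a and Apoe were also the 2 DE genes of the list in TG Me-X04- against WT, at 2.98 and 2.56, beside 0.189% of all genes DE and higher. In TG Me-X04+ against WT, 4 of the 10 rose and 1 fell, beside 8.25% and 6.02% of all genes. The 3 named rose there (Clec7a by 5.73, Apoe by 5.71, Trem2 by 1.49). So did Tyrobp, the signalling partner of Trem2, by 2.24 (adjusted p = 0.0184, lost under 3 of 25 alternatives). Cd33, an inhibitory receptor of microglia, was the 1 that fell there (log2FC -1.08, adjusted p = 0.000415). Between the TG groups the values of Cd33 did not overlap, as was so for 7.93% of all genes, and its log2FC of -0.63 did not pass (adjusted p = 0.0620 in limma). The sheddases Adam10 (-0.15) and Adam17 (0.29) and the kinase Syk (-0.55) were not DE between the TG groups. The median log2FC of the list was 0.07 between the TG groups, 0.15 in TG Me-X04- against WT and -0.09 in TG Me-X04+ against WT, beside -0.09, 0.01 and -0.11 over all genes.

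Markers of the cells that the gate could hold were read beside the Ms4a genes. Of the microglia markers, Tmem119 fell in TG Me-X04+ against TG Me-X04- (log2FC -1.58, adjusted p = 0.00821) and the other 11 did not pass. This was 1 of 12, beside 2.06% of all genes DE and lower. In TG Me-X04+ against WT, Tmem119 (-1.55) and P2ry12 (-0.97, lost under 2 of 25 alternatives) fell. These were 2 of 12, beside 6.02% of all genes. Of 12 markers of border-associated macrophages 10 were in the table, with a summed level per 1000000 reads of 190 to 396 (WT), 200 to 297 (TG Me-X04-) and 108 to 262 (TG Me-X04+). These sums weigh abundant genes most. Stab1 had the highest mean log2 RPKM of the 10 in WT (4.55) and TG Me-X04- (4.29). In TG Me-X04+ Stab1 was at 2.13, and Dab2 was highest (3.64). Counted gene by gene, 7 of the 10 had a log2FC above 0 between the TG groups (median 0.48, beside -0.09 over all genes). In TG Me-X04+ against WT it was 8 of 10 (median 1.34, beside -0.11 over all genes). Between the TG groups the endocytic adaptor Dab2 rose (1.65, adjusted p = 0.00936) and the scavenger receptor Stab1 fell (-2.15, adjusted p = 0.00126). These were 1 of 10 each way, beside 3.44% and 2.06% of all genes. Against WT in TG Me-X04+, Dab2 (1.96) and the folate receptor Folr2 (2.94, lost under 2 of 25 alternatives) rose and Stab1 (-2.42) fell. These were 2 and 1 of 10, beside 8.25% and 6.02% of all genes. In TG Me-X04- against WT none of these markers was DE, as none was of the monocyte, neutrophil, B cell and T and NK cell lists. Of all genes, 0.201% were DE there.

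Monocyte markers (5 of 10 in the table) summed per 1000000 reads to 16.3 to 27.6 (WT), 14.1 to 33.0 (TG Me-X04-) and 9.80 to 48.9 (TG Me-X04+). None was DE between the TG groups. In TG Me-X04+ against WT, 1 of the 5 rose and 1 fell, beside 8.25% and 6.02% of all genes. Fibronectin (Fn1) rose by 4.58 (adjusted p = 0.00171) from a low WT mean of -5.45. Under the alternatives its log2FC ran from 0.75 to 5.12. The chemokine receptor Ccr2 had a log2FC of -1.57. Neutrophil markers (3 of 8, with S100a9 and S100a8 highest) summed to 0 to 7.31, 0.109 to 18.7 and 0 to 21.0 on the same scale, and none was DE. B cell markers (3 of 8, mostly the immunoglobulin chain Ighm) summed to 168 to 320, 120 to 367 and 284 to 536, and Ighm rose in TG Me-X04+ against WT (0.97, adjusted p = 0.0398), a call lost under 11 of 25 alternatives. The defining markers Ms4a1 and Pax5 were not analysed here. Of the T and NK cell markers only Lck was listed (1 of 10), at 0 to 0.692 on this scale. The part of other cells in the values of the Ms4a genes was not tested.

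Beside the cluster, the 31 other listed genes that start within it or within 500 kb of its ends served as a measure of the region. In TG Me-X04+ against TG Me-X04-, 3 of them were DE and higher and 1 DE and lower, beside 3.44% and 2.06% of all genes. Counting all 31, 14 had a log2FC above 0, with a median of -0.05. The lymphocyte receptor gene Cd5 rose from -1.87 to 1.58 (log2FC 3.45, adjusted p = 0.00249), and Slc15a3, a peptide and histidine transporter of lysosomes, from 2.88 to 3.87 (log2FC 0.99, adjusted p = 0.0189, lost under 5 of 23 alternatives). The processed pseudogene Gm336 inside the cluster rose from 0.74 to 2.59 (log2FC 1.85, adjusted p = 0.0132). Gm38275, an annotated transcript of uncertain status beside Ms4a6d, fell from -0.25 to -2.89 (log2FC -2.64, adjusted p = 0.0425, lost under 10 of 22 alternatives). In TG Me-X04- against WT 0 neighbours were DE (0.201% of all genes), and in TG Me-X04+ against WT 6 were DE and higher and 1 DE and lower, beside 8.25% and 6.02% of all genes. The nearest listed genes outside the cluster, Ccdc86 on the left (0.75, adjusted p = 0.330) and the mitochondrial ribosomal gene Mrpl16 on the right (-0.11, adjusted p = 0.898), were not DE between the TG groups. Gm8369, the protein-coding gene between Ms4a6c and Ms4a6b, was singled out after its values were seen. It stood at -1.72 ± 0.71 (SD, n = 7) in WT, -0.70 ± 0.28 (n = 5) in TG Me-X04- and -2.50 ± 1.23 (n = 4) in TG Me-X04+. The values of the TG groups did not overlap, as was so for 7.93% of all genes. Its log2FC was -1.80 (SE 0.57, adjusted p = 0.0789 in limma), which did not pass.

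**Figure D4:**
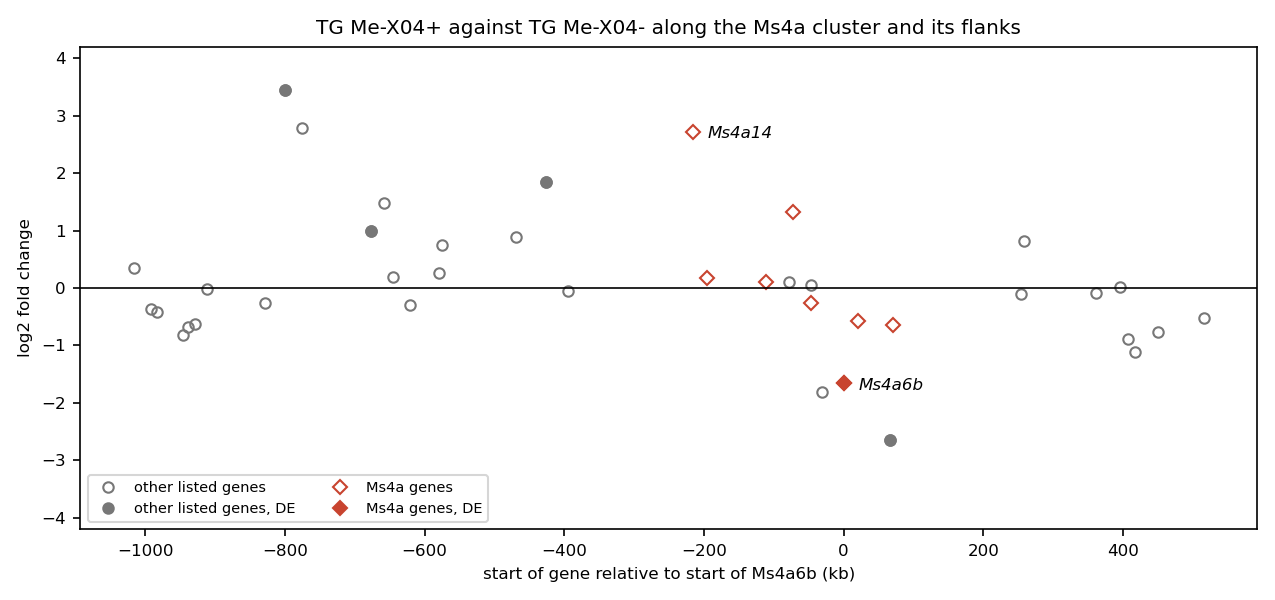
Log2 fold change of TG Me-X04+ against TG Me-X04- for the 8 Ms4a genes (red diamonds) and 31 other listed genes (grey circles), by the distance of the gene's start from that of Ms4a6b in kb; filled symbols are DE. Ms4a6b (-1.66) is the 1 filled diamond, with higher and lower genes on both sides of it.

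Among 12376 protein-coding genes, the 3 whose pattern was most like that of Ms4a6b were Bank1, Ptger3 and Kdm6b. Likeness was measured as the mean absolute difference of values standardized over the 16 libraries, which was 0.189, 0.218 and 0.221 SD for these genes, against a median of 1.06 over all. Bank1, an adaptor of B cell receptor signalling, had a mean of 3.48 for WT, 2.61 for TG Me-X04- but -2.40 for TG Me-X04+. Ptger3, a prostaglandin E receptor, had -0.30, -1.31 and -5.89, and Kdm6b, a histone demethylase, 2.37, 2.17 and 0.05. Ptger3 stood at a low level, and its log2FC of -4.58 between the TG groups shrank to -0.53 with log2(RPKM + 1), which lost the call. The other Ms4a genes had no match as close. Their best matches were at 0.435 SD for Ms4a6c (Gm3159, then Avpi1 and the arginase Arg1), 0.443 for Ms4a6d (Klrd1, Cables2 and Tub), 0.422 for Ms4a4b (Adam8, Dram1 and Carmil1), 0.425 for Ms4a4c (Pole, Fgr and Pdcd1), 0.489 for Ms4a4d (Thumpd3, Ppp2r3a and Supt20), 0.432 for Ms4a7 (Gm12184, Syt1 and Ifit1bl1) and 0.412 for Ms4a14 (Pa2g4, Fam50a and Tradd). Distances between the Ms4a genes were larger than these. They were sought among the few other Ms4a genes and not among 12376, so this does not show the Ms4a genes to be unlike each other. The closest pair was Ms4a4b and Ms4a7 at 0.663 SD, both with few reads, and the Ms4a gene closest to Ms4a6b was Ms4a6d at 0.709 SD. The libraries of a group or set share their differences, so these values describe the 16 libraries only.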

How the data were processed

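By the submitters' notes and the paper's methods, reads were trimmed (Trim Galore 0.4.4), aligned to GRCm38 (STAR 2.5.4b), counted per Gencode gene (featureCounts), filtered for low genes and scaled by TMM. The authors deposited log2 RPKM values for 17951 genes in 16 libraries, with a prior of 2 reads at the mean library size. The deposited log2 fold changes, p-values and score columns of the authors' own comparisons were not used. Reads were recovered from the steps of the values (100% whole within 0.01) for depths and alternatives. A group in which no library has more than 3 reads counts as at the floor, for counting error only.

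Tests are two-sided and come from limma 3.58.1 (R 4.3.3): 1 linear model with a coefficient for each of the 3 groups and no covariate, moderated with a variance trend, and p adjusted by the Benjamini-Hochberg method. The quasi-likelihood test of the paper's methods was not run, as log2 values were deposited; the recovered reads were tested with limma voom. The p-values rest on the spread within groups, between libraries of different animals. The main fit did not pair the TG libraries that share an animal, which was done only in the alternatives with a block. The fits were tested on simulated data. Alternatives, given in the closing section, covered the variance model, library weights, scaling, pseudocount, filter, samples, test, sets, block and each library left out; fits within 1 set were added after the data were seen. Sequences, coordinates and shared stretches come from GENCODE M21 (a later release than the one counted on; the length of Ms4a4b differs) with Biopython 1.88. Figures used matplotlib 3.10.9. The Ms4a genes, gene lists and tests were chosen with earlier results of these data known.

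Named genes were every Ms4a gene, the DE members of each list (up to 4 by size, or the 2 highest where none was DE), the nearest and DE neighbours, and the 3 protein-coding genes most like each Ms4a gene. TG libraries with the same number come from 1 animal by their labels. Across genes, what was left of their values after the group means were taken off correlated at r of 0.292 to 0.329 (4 pairs). TG libraries of different animals in the same set correlated about as well (0.221 to 0.332, 6 pairs) and those in different sets negatively (10 pairs), so the check shows the sets, and the pairing rests on the labels. WT numbers are other animals.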

Additional observations from a re-analysis of the deposited data

Results flagged for a closer look

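One value stood apart from its group by Dixon's criterion. Ms4a6c in the TG Me-X04- library of replicate 2 was at 1.17 log2 RPKM (90 reads), while the other 4 TG Me-X04- libraries were at 2.03 to 2.37, so that the gap took 0.72 of the range of the group. Of 24 sets of values (8 genes in 3 groups), this was the 1 that stood out, and chance alone sets apart about 1 in 20. Without this library the log2FC of Ms4a6c in TG Me-X04- against WT was 0.04 in place of -0.17, with no DE call in either case.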

How the results depend on the processing

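Over the log2FC of the 8 genes in the 3 comparisons, 577 values under alternatives were computed, not counting fits within 1 set; 541 kept their direction and their side of the threshold, 23 changed direction, 12 passed the threshold that the reported value did not, and 1 no longer passed. Ms4a6b kept direction and call in both comparisons with TG Me-X04+ under all of these. Values that changed are given below, and the cause was not tested. The 37 DE results of other named genes kept their direction under all 892 alternatives and lost the call in 47, and 27 of them lost it in 0.

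In TG Me-X04+ against TG Me-X04-, Ms4a7 changed sign with library quality weights (-0.53), scaling by reads outside mitochondrial genes (-0.049), log2(RPKM + 1) (-0.12) and in set B (-0.49). Ms4a4c did so with scaling outside mitochondrial genes (-0.15), log2(RPKM + 1) (-0.020) and in set A (-0.20), Ms4a4d with quantile normalization (0.23) and in set A (0.17), and Ms4a6c in set A (0.21). Ms4a6b did not pass in set A (-1.84). Ms4a6d passed with weights (-0.97), quantile normalization (-0.89) and scaling outside mitochondrial genes (-0.91), each with 2 Ms4a genes called, and in set B (-1.15). In TG Me-X04- against WT, Ms4a7 changed sign with weights (-0.59) and in set B (-1.09), Ms4a4d likewise (0.17 and 0.27), Ms4a14 with weights (-0.60), quantile normalization (-0.18), log2(RPKM + 1) (-0.0093) and in set B (-0.43), and Ms4a6d in set A (-0.12). In TG Me-X04+ against WT, Ms4a7 changed sign with weights (-1.11), log2(RPKM + 1) (-0.012) and in set B (-1.58). Ms4a4c did not pass with weights (2.17), in set A (2.69) or in set B (2.31). Ms4a6d passed with weights (-0.80), quantile normalization (-0.73), scaling outside mitochondrial genes (-0.71) and in set B (-0.91), Ms4a4b with quantile normalization (2.52, 4 Ms4a genes called), and Ms4a14 with a term for the sets (2.94) and in set A (6.01). A filter on a mean log2 RPKM of at least 0 left 1 Ms4a gene called there, since it removed the 5 genes with few reads.

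With a replicate block for the animal as a random effect, Ms4a7 in TG Me-X04+ against TG Me-X04- was at -0.0036 and 2110 genes were DE in place of 986. With the number as a fixed term Ms4a14 passed in TG Me-X04+ against WT (3.47), and 18 genes were DE in TG Me-X04- against WT in place of 36. The blocks changed no other call of an Ms4a gene. Of all genes, 2142 (TG Me-X04+ against TG Me-X04-), 101 (TG Me-X04- against WT) and 3919 (TG Me-X04+ against WT, in place of 2562) were DE with a term for the sets. Only 470 were DE between the TG groups when those libraries were fitted alone. In TG Me-X04- against WT the count was 175 with weights, 13 with log2(RPKM + 1) and 19 with the filter.

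Leaving out 1 library at a time gave, in TG Me-X04+ against TG Me-X04-, a log2FC of -0.50 to 0.79 for Ms4a7, -0.25 to 0.47 for Ms4a4c and 552 to 1021 DE genes, the lowest without TG Me-X04- replicate 5 and 624 without TG Me-X04+ replicate 2. In TG Me-X04- against WT it gave -0.13 to 1.16 for Ms4a7, -0.37 to 0.041 for Ms4a6c and 19 to 33 DE genes, with 19 without TG Me-X04- replicate 1 and 23 without replicate 3 or 4. In TG Me-X04+ against WT it gave 1.99 to 3.83 for Ms4a14. At 0 to 268 reads in a library, the genes other than the Ms4a6 genes have wide intervals, and a difference under a few fold was not detectable.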

Other observations

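Of all reads on the 8 Ms4a genes in a library, Ms4a6b took a median of 66.7% in WT (60.3% to 71.3%), 59.5% in TG Me-X04- (48.2% to 65.9%) and 36.9% in TG Me-X04+ (19.4% to 49.6%). Ms4a6d took 24.7%, 29.2% and 38.0%, and Ms4a6c 7.97%, 8.12% and 13.1%. Ms4a14 took at most 1.01% of these reads in WT and up to 27.0% in TG Me-X04+. These shares are not corrected for gene length, and 1 gene that falls raises the shares of the others.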
